A study of Mus musculus with 24 samples.

Results

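LAP is the long, activating product of Cebpb, the gene of the transcription factor C/EBPβ, and its effect was compared between leukaemias that arose in mice and a leukaemia cell line. The comparison is an interaction: the LAP effect in tumours minus the LAP effect in cells. Its samples were chosen by their titles and are 16 of the 24 arrays of the series. In tumours the LAP effect is the difference between LAP/Blnk preB-ALL (n = 3), precursor B-cell acute lymphoblastic leukaemias of Blnk knockout mice with a Cebpb LAP transgene, and Blnk preB-ALL (n = 5), leukaemias of the same kind from Blnk knockout mice without it. In cells it is the difference between BKO408 LAP (n = 4), the preB-ALL line BKO408 of a Blnk knockout mouse after transduction with a Cebpb LAP retrovirus, and BKO408 (n = 4), the line alone, both in medium with 5 ng/ml IL-7. All 4 groups therefore lack Blnk, and all were labelled as without further treatment. The labels name no virus in the BKO408 cells, so LAP and transduction itself cannot be told apart there. All cell arrays come from 1 line, which may carry traits of its own. The promoter that drives the transgene, the cells that express it, the tissue each tumour was taken from and the strain, age and sex of the mice are not known here. Nothing in the labels says whether the arrays of 1 group came from separate cultures or mice, so each p-value measures the spread between these samples, which may be technical.

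C/EBPβ binds DNA as a dimer and is best known for genes of macrophages, granulocytes, fat and liver. Translation of Cebpb can start at several positions, and LAP is a long product that keeps the activation domain. In precursor B cells the transcription factors EBF1, PAX5 and the E proteins hold the B-cell programme, the RAG recombinase cuts the immunoglobulin genes, and the adaptor BLNK carries the signal of the pre-B-cell receptor. C/EBP proteins put into B-lineage cells are known to raise myeloid genes and to lower B-lineage genes.

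The deposited values are log ratios, taken here as log2, of each probe set to its own median, with separate medians over the 8 cell arrays and over all 16 tumours of the series. A value of 0 is thus the middle of cells or of tumours, no level of expression can be read, and whether markers of pre-B cells were present could not be checked. Differences were therefore taken within tumours and within cells first. Values varied far less in cells: the standard deviation (SD) within a group had a median over genes of 0.157 in LAP/Blnk tumours, 0.207 in Blnk tumours, 0.0502 in BKO408 LAP and 0.0602 in BKO408 cells. Blnk tumour 5 had the highest median of the Blnk tumours in lists of other cells, and also in several B-lineage lists. Its median over 18 granulocyte genes was 2.73, against -0.63 to 0.05 in the other Blnk tumours and -0.55 to 0.35 in LAP/Blnk tumours. Its median over 19 stromal and endothelial genes was 1.34, over 18 T-cell genes 1.02, over 12 NK-cell genes 0.83 and over 20 monocyte and macrophage genes 0.82. The interaction of each gene was tested with limma, a linear model with moderated variance, over 17097 genes with Benjamini-Hochberg adjustment, and a gene passed at an adjusted p under 0.05.

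The LAP effects estimated in tumours and in cells were hardly correlated across genes. Tumour effects had a median size of 0.117 beside a median SE of 0.176, so the sign of many of them is uncertain. A correlation near 0 therefore does not show that the effects differ. Over the 17097 genes both effects had a Pearson correlation of -0.03 and a Spearman correlation of -0.06, as a description, since genes are not independent replicates and no sample is shared between tumours and cells. The sign was the same in 48.9% of all genes. Among the 3820 genes that passed in cells (22.3%), the sign was the same in 45.1%. In tumours 3 genes passed (0.0175%), at 989 with an unadjusted p under 0.05 (5.78%): Fgf12, B3galt1 and Shoc2.

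The interaction passed for 180 genes (1.05%), 89 above 0 (0.521%) and 91 below 0 (0.532%), and 2222 genes had an unadjusted p under 0.05 (13%). The effects had opposite signs in 155 of the 180 and the same sign in 25, where 48.9% of all genes had the same sign. Since a large difference between the effects chose the 180, opposite signs are partly set by that choice. The tumour effect was larger in size than the cell effect in 125, and the cell effect was larger in 55. With cells and tumours fitted separately, so that the narrow spread of cells does not enter the error of tumours, 37 genes passed (0.216%), all among the 180. With separate fits and the spread of all 16 tumours, 47 passed (0.275%), 43 of them among the 180, and 19 genes passed in all 3 fits. Of the 36 genes with a passing interaction that the naming rule took, 9 passed also with separate fits: Fgf12, Robo3, B3galt1, Kynu, Klf2, Gfi1, Angptl6, Ccl3 and Ero1a.

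**Figure D1:**
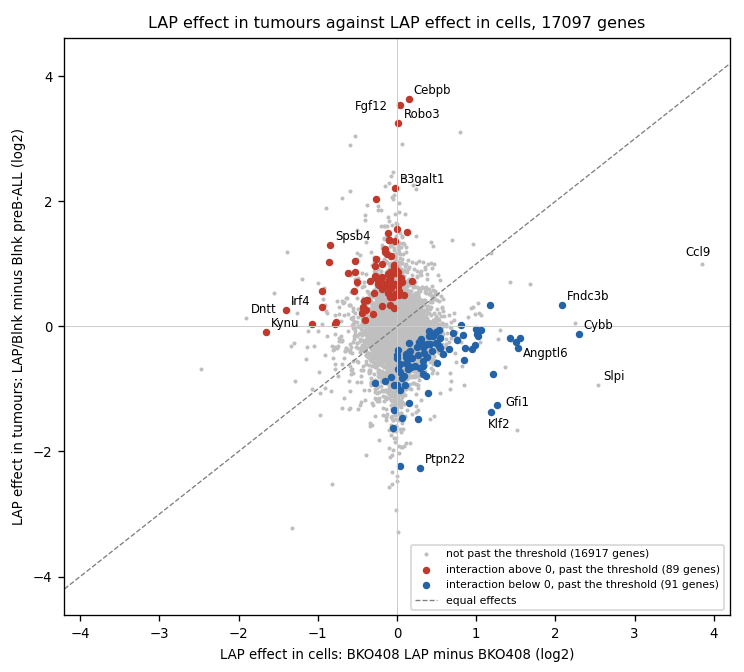
Each point is 1 of 17097 genes, with the LAP effect in tumours (LAP/Blnk minus Blnk preB-ALL, log2, vertical) against the LAP effect in cells (BKO408 LAP minus BKO408, log2, horizontal). Red and blue mark the 89 genes with an interaction above 0 and the 91 below 0 that passed, the dashed line marks equal effects, and the points spread along both axes rather than along the dashed line.

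Cebpb itself was read first, with 3 probe sets. The probe set with the largest spread had values of 0.51, -0.03 and 0.27 in LAP/Blnk tumours, against -3.99, -3.33, -3.19, -4.50 and -1.94 in Blnk tumours. In cells it had values of 0.11, 0.24, 0.03 and -0.01 with LAP, against -0.14, 0.01, -0.05 and -0.06 without. Tumours with the transgene thus lay apart from those without it, while the cell groups differed by 0.15 and overlapped. The interaction of this probe set was 3.49 ± 0.54 (SE; limma adjusted p = 0.00674; 0.0595 with separate fits). In an exact permutation test of labels within tumours and within cells, two-sided, p was 0.0176, and 0.0857 adjusted over the 12 tests of Cebpb and Blnk, where 0.000255 is the smallest p the 3920 arrangements allow. The exact test within tumours alone gave p = 0.0179 (adjusted 0.0857), the smallest p that test can give. The other 2 Cebpb probe sets had interactions of -0.48 (exact p = 0.599) and 0.45 (exact p = 0.0224, adjusted 0.0857), so the probe sets disagree, and their mean gave 1.15 (limma adjusted p = 0.268). Which part of Cebpb each covers is not known here, and one that lies outside what the virus or transgene carries would check nothing. The only Blnk probe set had values of 0.42, 0.52 and 1.23 in LAP/Blnk tumours, against -0.53, -0.68, 0.94, -0.17 and -0.55 in Blnk tumours, all of them knockouts by label. Its interaction of 1.02 ± 0.40 did not pass (limma adjusted p = 0.278; exact p = 0.0594, adjusted 0.119).

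Most of the strongest changes that LAP made in cells were not seen in tumours. In cells 47 genes changed at least 2-fold and passed, 28 higher and 19 lower with LAP. The median effect of the 28 was -0.14 in tumours against 1.34 in cells, and 10 of them had an effect above 0 in tumours, beside 44.5% of all genes. The 95% interval of the tumour effect held 0 for 26 of the 28 and held the cell effect for 5, namely Ctxn3, Ccl3, Mmp13, Lta and Acot2. Of these 5 genes Mmp13, Lta and Acot2 were named after their values were seen. The median effect of the 19 lowered genes was -0.09 in tumours against -1.30 in cells. In tumours 11 of them had an effect below 0, where 44.5% of all genes had one above 0. The tumour interval of the 19 held 0 for 18 and the cell effect for 12. By these intervals the tumours do not separate an effect as in cells from none for most of the 19 genes. The 95% interval of the interaction, from the 16 arrays compared, left out 0 for 3 of these 12. They were Rag1 (0.64 to 2.79), Rag2 (0.70 to 3.19) and Tmem255a (0.34 to 2.63, named after its value was seen). None of their interactions passed, and for the others of the 12 the interval held 0. No gene of the 47 passed in tumours, where 3 had an unadjusted p under 0.05, beside 5.78% of all genes. The interaction passed for 13 of the 28 and 3 of the 19, beside 1.05% of all genes. Since a large cell effect chose these genes, an interaction of opposite sign is partly set by the choice.

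**Figure D2:**
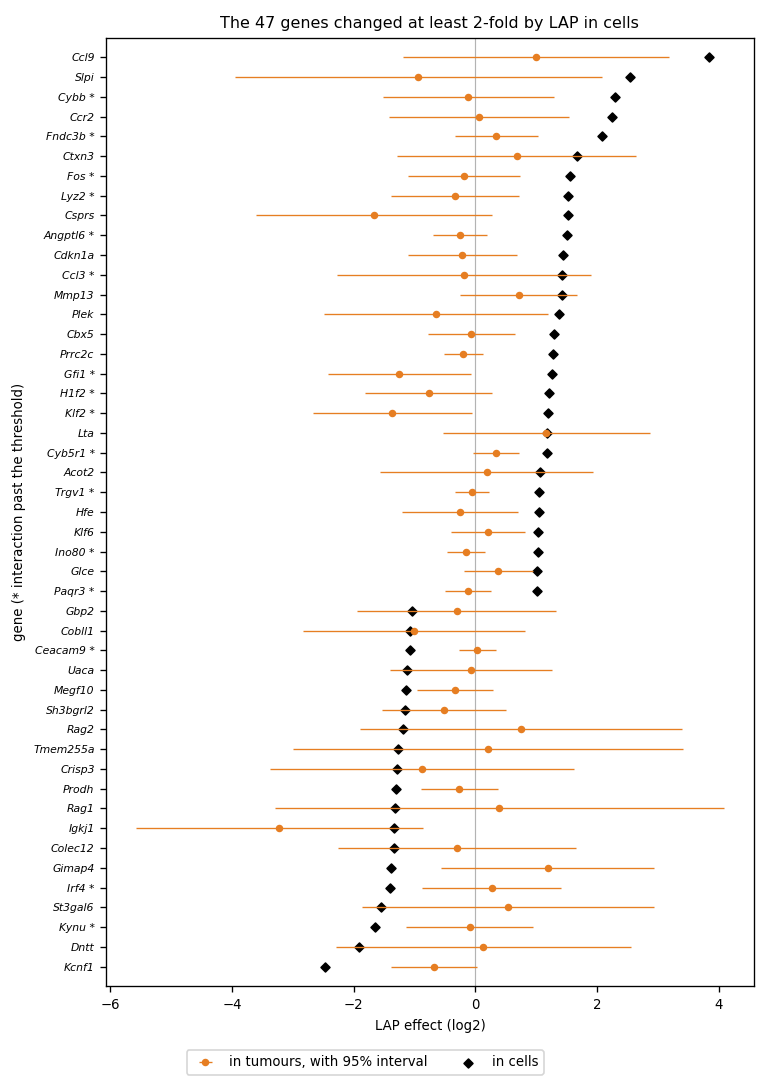
For each of the 47 genes changed at least 2-fold by LAP in cells, the orange point is the LAP effect in tumours with its 95% interval and the black diamond the effect in cells (log2, horizontal), with an asterisk where the interaction passed. The orange points lie around 0, with medians of -0.14 for the 28 raised genes and -0.09 for the 19 lowered ones, while most intervals are wide.

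Among transcription factors, Klf2 and Gfi1 had effects of opposite sign in tumours and in cells, though neither tumour effect passed. Klf2 encodes a zinc-finger factor of lymphocyte quiescence and homing. Its values were -0.89, -1.87 and -1.74 in LAP/Blnk tumours, against -0.64, -0.10, -0.61, 0.10 and 0.57 in Blnk tumours. In cells they were 0.53, 0.54, 0.51 and 0.56 with LAP, against -0.59, -0.70, -0.82 and -0.51 without. All tumours with LAP lay below all without, and all cells with LAP above all without. Klf2 was thus 2.57-fold lower with LAP in tumours (-1.36 ± 0.61, SE; limma unadjusted p = 0.0429, adjusted 0.839) and 2.28-fold higher in cells (1.19 ± 0.06; limma adjusted p = 1e-06). Its interaction was -2.55 ± 0.35 (limma adjusted p = 0.0034, 0.0341 with separate fits, and 0.104 with the spread of all 16 tumours). Without Blnk tumour 5 it was -2.38.

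Gfi1 encodes a repressor at the choice between B-cell and myeloid fates that is also counted among granulocyte genes. Gfi1 values were -1.26, -0.03 and -0.70 in LAP/Blnk tumours, against 0.81, 0.69, 0.31, 1.10 and 0.03 in Blnk tumours. In cells Gfi1 was at 0.61, 0.59, 0.60 and 0.62 with LAP, against -0.71, -0.68, -0.67 and -0.59 without. Again neither pair of groups overlapped. The Gfi1 effect in tumours was -1.25 ± 0.55 and did not pass (SE; limma unadjusted p = 0.0384, adjusted 0.837). The Gfi1 interaction was -2.52 ± 0.33 (limma adjusted p = 0.00247, 0.0331 with separate fits, and 0.0764 with the spread of all 16 tumours). Of the 47 genes, Klf2 and Gfi1 were the 2 whose tumour groups did not overlap, both with LAP/Blnk lower, beside 5.36% of all genes without overlap in tumours, 2.67% with LAP/Blnk higher and 2.69% with LAP/Blnk lower. Gfi1b, a close relative best known in red-cell and platelet precursors, went the other way, with an effect of 0.32 in tumours and -0.95 in cells (interaction 1.26 ± 0.21, limma adjusted p = 0.0122, 0.0595 with separate fits).

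The promoters of Klf2, Gfi1 and 2 further genes raised in cells are shown because their letters can be set against the letters that C/EBP dimers prefer. Each window runs from 250 bases before to 50 after a RefSeq start, on the strand of the gene, from the RefSeq table of GRCm38.p6. Capitals mark the letters TTGCNNAA or, read on the other strand, TTNNGCAA, where N is any base.
Gfi1, chr5:107725756-107726055, minus strand: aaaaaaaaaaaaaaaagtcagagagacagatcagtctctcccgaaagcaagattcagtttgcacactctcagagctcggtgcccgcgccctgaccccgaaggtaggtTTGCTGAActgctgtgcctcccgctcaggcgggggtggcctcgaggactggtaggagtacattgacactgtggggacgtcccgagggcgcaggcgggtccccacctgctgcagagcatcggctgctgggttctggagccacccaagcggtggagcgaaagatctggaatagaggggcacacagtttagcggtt
Klf2, chr8:72318812-72319111, plus strand: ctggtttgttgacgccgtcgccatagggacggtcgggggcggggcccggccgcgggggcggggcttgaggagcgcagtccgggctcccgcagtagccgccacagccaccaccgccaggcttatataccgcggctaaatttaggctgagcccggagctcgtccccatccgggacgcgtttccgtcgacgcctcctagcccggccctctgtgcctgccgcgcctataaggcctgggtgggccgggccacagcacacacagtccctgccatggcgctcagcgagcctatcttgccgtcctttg
Slpi, chr2:164356458-164356757, minus strand: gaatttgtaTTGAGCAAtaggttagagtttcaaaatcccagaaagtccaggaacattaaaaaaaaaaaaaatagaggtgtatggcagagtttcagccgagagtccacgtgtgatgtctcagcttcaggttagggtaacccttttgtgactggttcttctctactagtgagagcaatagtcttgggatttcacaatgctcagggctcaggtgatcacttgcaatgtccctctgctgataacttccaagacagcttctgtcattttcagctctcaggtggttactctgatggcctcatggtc
Ccl3, chr11:83649329-83649628, minus strand: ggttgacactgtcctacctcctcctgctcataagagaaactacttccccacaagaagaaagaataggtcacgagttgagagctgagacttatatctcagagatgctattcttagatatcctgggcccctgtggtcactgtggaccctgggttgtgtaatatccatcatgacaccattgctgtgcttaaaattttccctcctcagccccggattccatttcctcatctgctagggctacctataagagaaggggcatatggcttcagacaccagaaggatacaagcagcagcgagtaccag
The Gfi1 window shown holds TTGCTGAA, beginning 143 bases before its start. A second Gfi1 window in the table, chr5:107724294-107724593, holds neither form. The Slpi window holds TTGAGCAA, beginning 241 bases before its start. The windows of Klf2, Ccl3 and Lyz2 hold neither form, which says only that these letters are not in these windows. Over all promoters in the table, 3547 of 32851 windows held the letters (10.8%), and of 17065 windows of the genes tested 1596 did (9.35%). Of 28 windows of the genes raised in cells 3 did (10.7%), those of Gfi1, Slpi and Ino80, the last named after its value was seen. Of 16 windows of the genes lowered at least 2-fold in cells 2 did (12.5%), those of Crisp3 and Tmem255a, the second named after its value was seen. Of 102 windows of genes with a passing interaction above 0, 9.80% held them, and of 103 windows of those below 0, 6.80%.

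Angptl6, Ccl3, Lyz2 and Cybb rose with LAP in cells and had overlapping values in tumours. Angptl6, a secreted angiopoietin-like protein, had values of -0.31, -0.05 and -0.15 in LAP/Blnk tumours, against 0.10, 0.11, -0.17, 0.22 and 0.17 in Blnk tumours. In cells it was at 0.75, 0.68, 0.87 and 0.80 with LAP, against -0.72, -0.68, -0.72 and -0.82 without. The tumour groups overlapped through Blnk tumour 3, and the cell groups lay far apart. Angptl6 had an effect of -0.25 ± 0.21 in tumours against 1.50 ± 0.05 in cells, and an interaction of -1.76 ± 0.12 (limma adjusted p = 5e-06, and 0.000229 with separate fits). It passed in all 29 settings tried, between -1.82 and -1.60.

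Ccl3, a chemokine of activated macrophages and B cells, had values of -0.08, -0.32 and -0.48 in LAP/Blnk tumours, against 0.19, -0.01, -0.37, -0.36 and 0.01 in Blnk tumours. In cells Ccl3 was at 0.73, 0.51, 0.89 and 0.90 with LAP, against -0.68, -0.65, -0.85 and -0.51 without. The tumours overlapped and the cells did not. The Ccl3 interaction was -1.62 ± 0.20 (limma adjusted p = 0.00146, and 0.00281 with separate fits). In the fit with the spread of all 16 tumours its effect was -0.19 ± 0.97 and the adjusted p 0.679, so the call rests on the narrow spread of the 8 tumours compared. Ero1a, an oxidase of the endoplasmic reticulum that helps to form disulphide bonds, had an effect of -0.29 in tumours and 0.98 in cells. Its interaction of -1.28 ± 0.18 passed in all 29 settings (limma adjusted p = 0.0034, and 0.0386 with separate fits).

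Lyz2, the lysozyme of macrophages and granulocytes, had values of -0.11, -0.31 and -0.31 in LAP/Blnk tumours, against -0.05, 0.50, 0.27, -0.79 and 0.54 in Blnk tumours. In cells Lyz2 was at 0.78, 0.73, 0.81 and 0.82 with LAP, against -0.74, -0.75, -0.74 and -0.73 without. The LAP/Blnk tumours lay within the range of the Blnk tumours. Its interaction was -1.86 ± 0.30 (limma adjusted p = 0.00906, 0.0677 with separate fits), and -1.75 without Blnk tumour 5, which is high in lists of other cells and in B-lineage lists.

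Cybb, the catalytic subunit of the phagocyte oxidase, had values of 0.11, -0.37 and -1.24 in LAP/Blnk tumours, against -0.91, -0.11, -0.56, -1.18 and 0.85 in Blnk tumours. In cells Cybb was at 1.05, 1.27, 1.12 and 1.22 with LAP, against -1.14, -1.05, -1.09 and -1.22 without. The highest tumour was Blnk tumour 5, without which the interaction of -2.41 ± 0.51 was -2.10 (limma adjusted p = 0.0382 with it, 0.121 with separate fits). The mean of the 3 Cybb probe sets gave -1.18 and did not pass (limma adjusted p = 0.27). In bulk samples, fewer cells of a type and less RNA per cell cannot be told apart.

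The 4 genes raised most in cells differed widely between tumours, and for Cybb alone among them the interaction passed. Ccl9, a chemokine of myeloid cells, had values of 1.18, 0.71 and 0.30 in LAP/Blnk tumours, against -1.11, -0.25, 0.53, -2.29 and 1.79 in Blnk tumours. In cells Ccl9 lay between 1.85 and 1.99 with LAP, against -2.08 to -1.85 without. The Ccl9 effect was 1.00 ± 1.02 in tumours and 3.85 ± 0.05 in cells, with an interaction of -2.85 ± 0.86 (limma adjusted p = 0.146). Slpi, a protease inhibitor, was at -0.21, -1.79 and -1.71 in LAP/Blnk tumours, against -1.28, 0.58, -1.47, -1.61 and 2.28 in Blnk tumours. Its interaction of -3.48 ± 0.98 did not pass (limma adjusted p = 0.112), and it passed at -2.84 without Blnk tumour 5. Ccr2, the monocyte receptor for CCL2, was likewise highest in Blnk tumour 5 (2.22) and had an interaction of -2.19 ± 0.85 (limma adjusted p = 0.268).

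Among immediate early genes, Fos, a subunit of AP-1, had values of -0.43, -0.73 and 0.09 in LAP/Blnk tumours, against -0.37, -0.09, -0.40, -0.58 and 0.57 in Blnk tumours. In cells Fos was at 0.77, 0.73, 0.90 and 0.85 with LAP, against -0.73, -0.73, -0.74 and -0.79 without. The tumours overlapped throughout and the cells lay 2.94-fold apart. The interaction of Fos was -1.74 ± 0.30 (limma adjusted p = 0.0136, 0.0745 with separate fits). Egr1, another immediate early factor, had -0.94 in tumours and 0.84 in cells, and its interaction of -1.78 ± 0.58 did not pass (limma adjusted p = 0.178). H1f2, a linker histone, and Fndc3b, a membrane protein with fibronectin domains, had interactions of -1.97 ± 0.43 and -1.74 ± 0.35 that passed at limma adjusted p of 0.045 and 0.0317, but not with separate fits (0.137 and 0.104).

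Of the 19 genes lowered at least 2-fold by LAP in cells, Irf4, Kynu and Ceacam9 had passing interactions, the last at 1.11 and named after its value was seen. Irf4 encodes an interferon regulatory factor of pre-B-cell and plasma-cell differentiation. Its values were -0.07, 0.09 and 0.99 in LAP/Blnk tumours, against 0.30, -0.59, -0.13, 0.07 and 0.69 in Blnk tumours. In cells Irf4 was at -0.72, -0.67, -0.71 and -0.68 with LAP, against 0.71, 0.67, 0.71 and 0.76 without. It was 2.65-fold lower with LAP in cells and overlapped in tumours. The Irf4 interaction was 1.67 ± 0.34 (limma adjusted p = 0.0326, 0.113 with separate fits), and the mean of its 2 probe sets gave 1.00 (limma adjusted p = 0.0705).

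Kynu, an enzyme of tryptophan breakdown, had values of -0.32, 0.13 and -0.19 in LAP/Blnk tumours, against -0.36, 0.17, -0.08, 0.13 and -0.03 in Blnk tumours. In cells Kynu was at -0.64, -0.80, -0.66 and -0.74 with LAP, against 1.04, 1.04, 0.64 and 1.03 without. The tumours of both groups thus shared a range. The Kynu interaction was 1.56 ± 0.18 (limma adjusted p = 0.00119, 0.00256 with separate fits, and 0.267 with the spread of all 16 tumours).

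Genes of early B-cell recombination, lowered by LAP in cells, had tumour values too wide for a call. Rag1 encodes a recombinase subunit and was at 1.18, 0.08 and 2.17 in LAP/Blnk tumours, against 0.49, -0.08, 1.27, 0.90 and 1.16 in Blnk tumours. The Rag1 interaction was 1.72 ± 0.50 (limma adjusted p = 0.13), with an effect of 0.40 in tumours and -1.32 in cells. Rag2, the other subunit, had an interaction of 1.95 ± 0.58 (limma adjusted p = 0.14). Dntt, the terminal transferase that adds bases at the joints, was at -0.04, 1.31 and 3.36 in LAP/Blnk tumours, against 0.08, 0.19, 5.79, 0.97 and 0.04 in Blnk tumours. Blnk tumour 3 stood far above the rest, and the Dntt interaction was 2.04 ± 1.50 (limma adjusted p = 0.635). Kcnf1, a potassium channel subunit and the gene lowered most in cells (-2.48), had an effect of -0.68 ± 0.33 in tumours. Its interaction of 1.80 ± 0.44 did not pass (limma adjusted p = 0.0711) but passed with separate fits and all 16 tumours (0.0404).

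**Figure D3:**
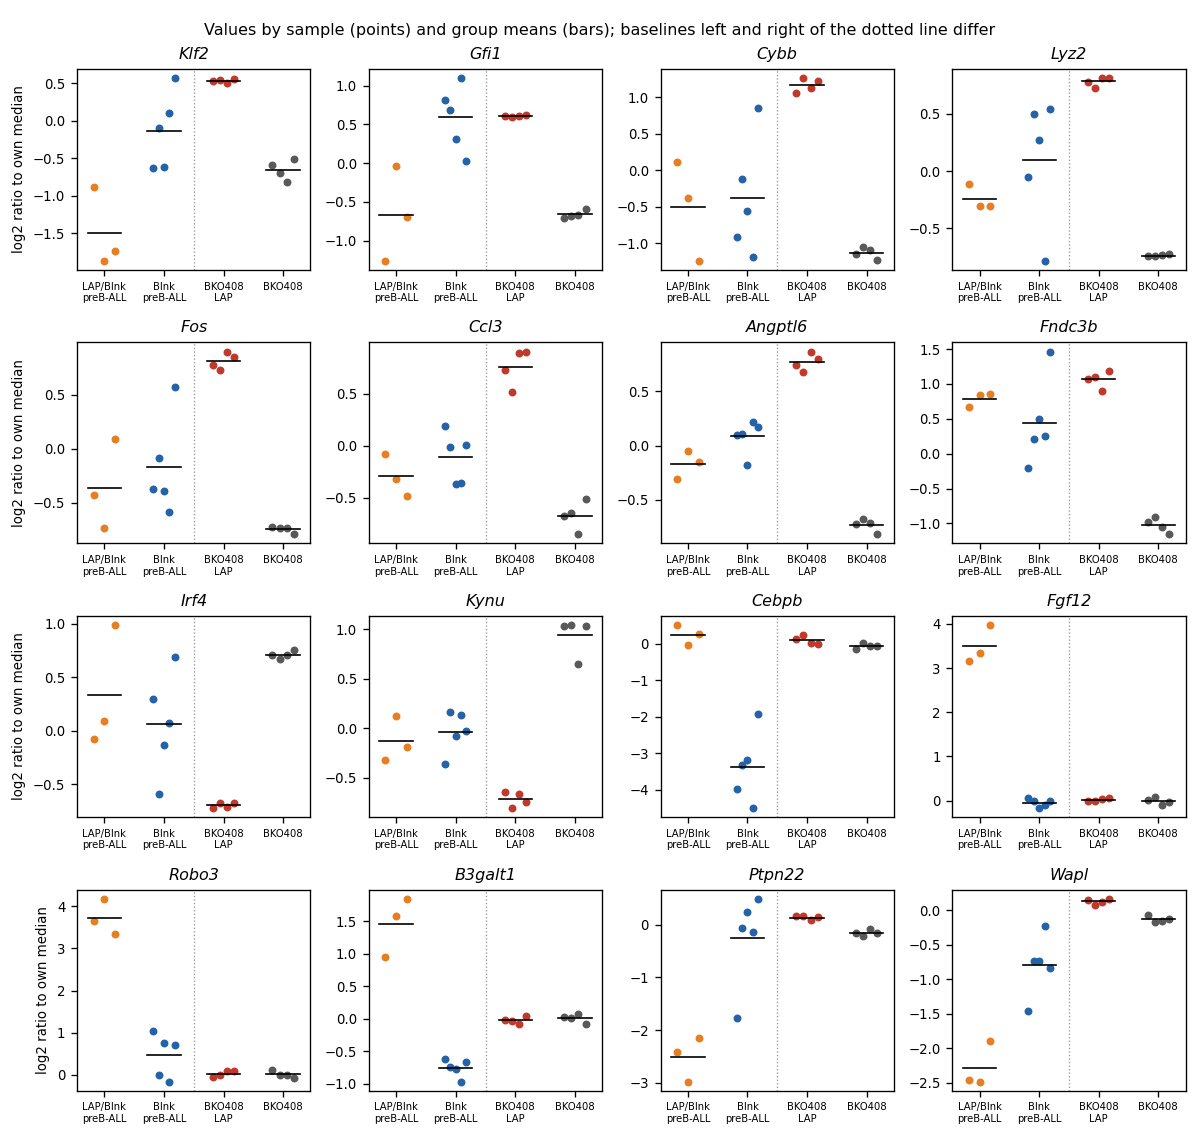
Values of 16 genes by sample (points; log2 ratio to the median of tumours or of cells) with group means (bars), tumours left and cells right of the dotted line, which have separate baselines. Klf2 and Gfi1 are lower with LAP in tumours and higher with LAP in cells, though neither tumour effect passed. Fgf12, Robo3 and B3galt1 differ between tumours alone, though the tumour effect of Robo3 did not pass. Kynu, Fos and Lyz2 differ between cells while their tumours overlap.

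Other genes differed with LAP between tumours and hardly between cells. Fgf12 encodes an intracellular relative of fibroblast growth factors known from neurons and heart. Its values were 3.16, 3.35 and 3.97 in LAP/Blnk tumours, against 0.05, -0.01, -0.17, -0.09 and -0.02 in Blnk tumours. In cells they were 0.00, 0.00, 0.04 and 0.05 with LAP, against 0.00, 0.09, -0.11 and -0.03 without. The 3 LAP/Blnk tumours stood apart by 11.6-fold and the cell groups coincided. The interaction of Fgf12 was 3.51 ± 0.18, the largest above 0 among the 180, and passed in all 29 settings (Satterthwaite test, adjusted p = 0.000229 with separate fits). The mean of its 3 probe sets gave 2.27.

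Robo3, an axon guidance receptor, had values of 3.65, 4.18 and 3.33 in LAP/Blnk tumours, against 1.05, 0.00, 0.76, -0.16 and 0.70 in Blnk tumours. The cells of both groups lay between -0.07 and 0.11. The Robo3 effect in tumours was 3.25 ± 0.53 and did not pass (limma adjusted p = 0.0687). The Robo3 interaction was 3.23 ± 0.33 (limma adjusted p = 0.000384, and 0.00983 with separate fits). B3galt1, a galactosyltransferase of glycan chains, was at 0.95, 1.59 and 1.85 in LAP/Blnk tumours, against -0.62, -0.74, -0.77, -0.96 and -0.67 in Blnk tumours. The B3galt1 interaction was 2.25 ± 0.20 (limma adjusted p = 0.000126, and 0.00391 with separate fits), passed in all 29 settings, and was 1.35 for the mean of its 4 probe sets.

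Further genes with positive interactions are of mixed roles. Spsb4, a substrate receptor of ubiquitin ligases, was at 2.88, 2.68 and 2.82 in LAP/Blnk tumours, against 0.72, 1.38, 2.84, 1.33 and 1.19 in Blnk tumours, so Blnk tumour 3 overlapped. In cells it lay between -0.56 and -0.32 with LAP, against 0.32 to 0.45 without, and its interaction was 2.14 ± 0.44 (limma adjusted p = 0.0321, 0.11 with separate fits). Tifa and Tifab, which encode an adaptor and a related regulator of TRAF6 signalling, had interactions of 1.51 ± 0.28 and 1.49 ± 0.28, both at a limma adjusted p of 0.0207 and not passing with separate fits (0.0919 and 0.0824). The kinase gene Stk39, at 1.57 ± 0.35, and Tmem108, at 1.90 ± 0.41, passed at 0.0466 and 0.045 in limma and not with separate fits. The remaining genes of the 15 largest above 0, namely Mirt1, Cyb561a3, Gfra1 and Ccdc186, lie on chromosome 19.

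Genes with an effect below 0 in tumours and an effect smaller in size in cells included Ptpn22, a phosphatase that restrains antigen-receptor signalling. No tumour effect of these genes passed, while in cells those of Ptpn22, Wapl and Ube2d3 did, at 0.29, 0.26 and 0.40. Ptpn22 was at -2.41, -2.98 and -2.15 in LAP/Blnk tumours, against -1.78, -0.07, 0.24, -0.14 and 0.49 in Blnk tumours. The cells differed by 0.29, and the interaction was -2.55 ± 0.51 (limma adjusted p = 0.0307, 0.109 with separate fits). Blnk tumour 1 lay near the LAP/Blnk tumours. Xrcc5, the KU80 subunit that holds broken DNA ends for joining, was at -0.87, -0.61 and -0.92 in LAP/Blnk tumours, against 0.72, 0.69, 0.53, 0.76 and -0.05 in Blnk tumours. Xrcc5 had an interaction of -1.30 ± 0.20 (limma adjusted p = 0.00674, 0.0595 with separate fits), against an effect of -0.03 in cells. Wapl, which releases cohesin from DNA, had an interaction of -1.74 ± 0.28 (limma adjusted p = 0.00821), but the mean of its 3 probe sets gave -0.51 and did not pass. Ube2d3, a ubiquitin-conjugating enzyme, had -1.47 ± 0.30, and the mean of its 7 probe sets gave -0.40. The tight-junction gene Cldn10 (-2.27 ± 0.49), the carbonyl reductase Cbr1 (-1.56 ± 0.27) and the methyltransferase gene Smyd2 (-1.52 ± 0.30) also passed, at limma adjusted p of 0.0448, 0.0146 and 0.0277, and none of these 3 with separate fits (0.135, 0.0745 and 0.104).

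Read by gene list, the largest median interaction was that of 27 interferon response genes, at -0.89 beside -0.01 over all genes. Of these 27 genes 26 had an effect below 0 in tumours, where 44.5% of all genes had one above 0, with a median of -1.06 against -0.14 in cells. None passed the interaction, in which 1.05% of all genes passed. In cells 11 fell, where 11.8% of all genes fell, and none rose, where 10.5% did. Usp18, which removes ISG15 from proteins, was at -1.79, -2.15 and -2.13 in LAP/Blnk tumours, against -1.72, 0.91, 1.36, -1.02 and 1.49 in Blnk tumours. Its interaction was -2.25 ± 0.81 (limma adjusted p = 0.234). The median of the 27 genes was -0.92, -0.91 and -0.76 in LAP/Blnk tumours, against -1.02, 0.11, 0.39, -0.28 and 0.52 in Blnk tumours, so Blnk tumour 1 lay below all LAP/Blnk tumours.

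Most genes of ribosome biogenesis and Myc rose in cells, and most had an effect below 0 in tumours without a passing interaction. Of 24 genes 19 rose in cells, where 10.5% of all genes rose, and none fell, where 11.8% did, with a median of 0.21. In tumours 20 had an effect below 0, where 44.5% of all genes had one above 0, with a median of -0.33. Their median interaction was -0.50 and none passed, where 1.05% of all genes passed. Srm, the spermidine synthase gene, was at -0.42, -0.46 and -0.35 in LAP/Blnk tumours, against 0.71, 0.41, -0.11, 0.44 and -0.62 in Blnk tumours. In cells Srm was at 0.23, 0.23, 0.26 and 0.19 with LAP, against -0.20, -0.28, -0.28 and -0.19 without. The Srm interaction was -1.04 ± 0.29 (limma adjusted p = 0.112), and -1.24 without Blnk tumour 5, where it passed (limma adjusted p = 0.00326). Over the 24 genes, LAP/Blnk tumours had medians of -0.05, -0.02 and -0.12, against 0.58, 0.58, -0.19, 0.32 and -0.29 in Blnk tumours, so the LAP/Blnk tumours lay within the range of the Blnk tumours.

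Most cholesterol synthesis genes fell in cells, and most had an effect above 0 in tumours. Of 18 genes 14 fell in cells (11.8% of all genes did) and none rose (10.5% did), with a median of -0.38. In tumours 14 had an effect above 0, beside 44.5% of all genes, with a median of 0.15. The median interaction was 0.54, and 2 genes passed (11.1%, beside 1.05% of all genes), both above 0: Stard4, a carrier of sterols, and Nsdhl, a dehydrogenase of the pathway that was named after its value was seen (0.66). Stard4 was at 0.63, 0.66 and 0.80 in LAP/Blnk tumours, against 0.47, 0.07, 0.36, 0.55 and -0.07 in Blnk tumours. In cells it was at -0.21, -0.13, -0.12 and -0.13 with LAP, against 0.12, 0.30, 0.28 and 0.22 without. Stard4 had an interaction of 0.80 ± 0.16 (limma adjusted p = 0.032, 0.104 with separate fits). Cyp51, which demethylates lanosterol, and Srebf2, the factor that turns on the pathway, had interactions of 1.17 ± 0.27 and 0.83 ± 0.19 that did not pass (limma adjusted p = 0.0566 and 0.0537), and passed without Blnk tumour 5 at 1.05 and 0.76 (0.0308 and 0.0345).

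The counts of the next lists stand beside 10.5% of all genes that rose and 11.8% that fell in cells, 44.5% with an effect above 0 in tumours, and 1.05% with a passing interaction. Of 23 immediate early genes 11 rose and 2 fell in cells, with a median of 0.21, and 7 had an effect above 0 and 16 below 0 in tumours. Their median interaction was -0.28, and 2 passed below 0, Fos and Klf2. Among 16 genes of early pro-B cells and of V(D)J recombination 10 fell and 2 rose in cells, and 1 interaction passed above 0, that of the progenitor receptor gene Cd93 (1.22, named after its value was seen), and 1 below 0, that of Xrcc5. Among 24 B-lineage transcription factors 11 fell and 1 rose in cells, and the interaction of Irf4 alone passed. Of 21 pre-B receptor and signalling genes 17 had an effect above 0 in tumours and no interaction passed, with a median interaction of 0.42. Pik3ap1, an adaptor of the B-cell receptor, came nearest at 1.22 ± 0.28 (limma adjusted p = 0.0516), and passed at 1.25 without Blnk tumour 5. Of 36 cell-cycle genes 19 fell and 5 rose in cells, and Cdkn2c, an inhibitor of CDK4 and CDK6, passed at 0.84 ± 0.18 (limma adjusted p = 0.045, 0.138 with separate fits).

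Myeloid lists leaned below 0, beside a median interaction of -0.01 over all genes and 46.9% of genes above 0 on chromosomes 1 to 18. The interaction was below 0 in 25 of 27 chemokines and receptors (median -0.39) and in 15 of 19 phagocyte oxidase and lysosome genes (median -0.37). It was below 0 in 16 of 18 granulocyte genes (median -0.55) and in 18 of 20 monocyte and macrophage genes (median -0.68). In cells the medians of these 4 lists lay between -0.00 and 0.02. The passing genes of these lists were Ccl3, Cybb, Lyz2 and Gfi1. They made up 3.7%, 10.5%, 5.56% and 5.0% of the 4 lists in the order given, beside 1.05% of all genes. Blnk tumour 5 moved with these medians: without it the granulocyte median was 0.15, that of chemokines -0.11 and that of monocytes -0.41. The median of phagocyte oxidase and lysosome genes was -0.30 without it. In 21 inflammatory genes with C/EBP sites the median interaction was -0.06 (0.02 without Blnk tumour 5), and Ccl3 alone passed.

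**Figure D4:**
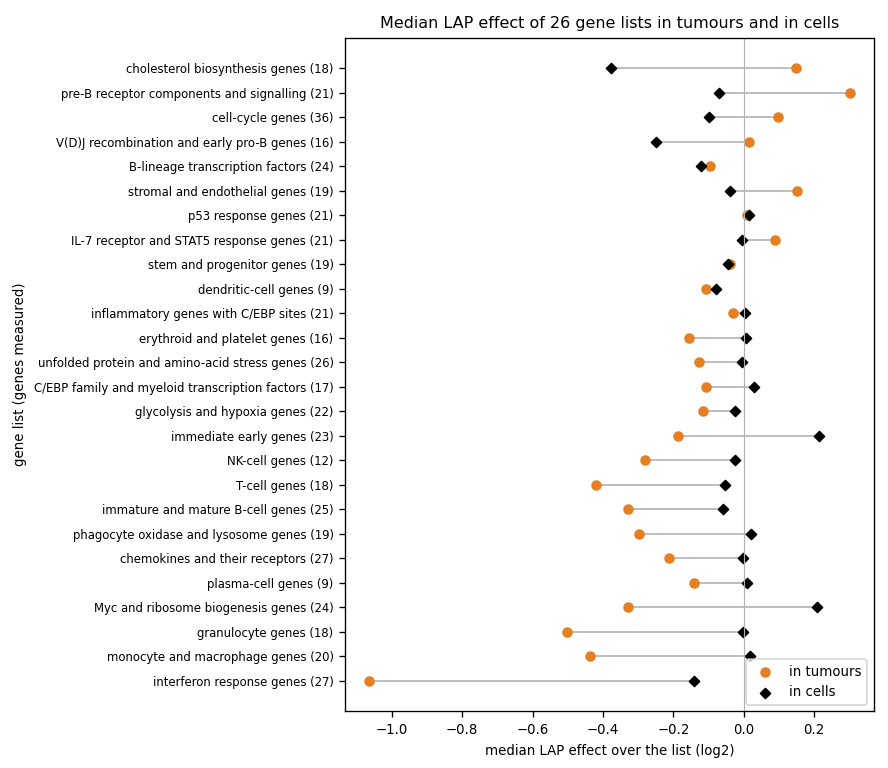
Median LAP effect of 26 gene lists in tumours (orange circles) and in cells (black diamonds) on the log2 scale, with the number of genes measured in brackets and lists ordered by median interaction. Interferon response genes lie at -1.06 in tumours against -0.14 in cells, and cholesterol biosynthesis genes at 0.15 in tumours against -0.38 in cells.

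Passing interactions above 0 were placed unevenly over the chromosomes. Of 568 genes of chromosome 19, 49 passed above 0 (8.63%) and none below 0, while 2222 genes of all chromosomes had an unadjusted p under 0.05. On chromosomes 1 to 18, 37 of 15760 genes passed above 0 (0.235%) and 88 below 0. The median interaction of chromosome 19 genes was 0.24, with a median effect of 0.24 in tumours and -0.02 in cells, and 78.0% lay above 0, beside 46.9% on chromosomes 1 to 18. The median of chromosome 19 minus that of chromosomes 1 to 18 was 0.22, 0.22 and 0.37 in LAP/Blnk tumours, against 0.05, -0.08, 0.06, 0.07 and -0.06 in Blnk tumours. It lay between -0.00 and 0.01 in the cell arrays. All 3 LAP/Blnk tumours thus lay above all Blnk tumours, and the cell arrays lay near 0. Blnk lies on this chromosome too, as do Dntt and Pik3ap1. Copy number was not measured here, and its part in the shift was not tested.

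Shoc2, a scaffold of RAS signalling on chromosome 19, was at 1.01, 1.03 and 0.83 in LAP/Blnk tumours, against -0.16, -0.15, 0.20, 0.44 and 0.10 in Blnk tumours. Its effect passed in tumours (0.87 ± 0.12, limma adjusted p = 0.0353), and its interaction was 0.85 ± 0.16 (limma adjusted p = 0.0241, 0.077 with separate fits). Mirt1, a long non-coding RNA, had the largest interaction of the chromosome that passed, at 2.31 ± 0.48. Cyb561a3, a lysosomal cytochrome, Gfra1, the receptor of GDNF, and Ccdc186 followed at 1.60 ± 0.34, 1.57 ± 0.26 and 1.49 ± 0.31. These 4 passed at limma adjusted p of 0.0341, 0.0371, 0.00906 and 0.0345. None of the 4 passed with separate fits (Satterthwaite test, adjusted p of 0.116, 0.123, 0.0677 and 0.116), and 7 of the 49 did.

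**Figure D5:**
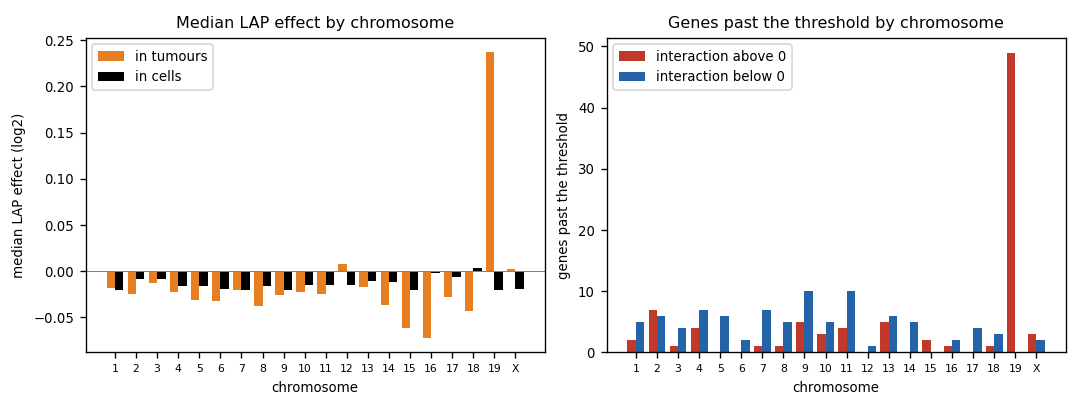
Left, the median LAP effect (log2) of the genes of each chromosome in tumours (orange) and in cells (black); right, the number of genes with a passing interaction above 0 (red) and below 0 (blue). Chromosome 19 stands at 0.24 in tumours and -0.02 in cells, with 49 genes above 0 and none below 0.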

How the data were processed

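Expression was measured on Affymetrix arrays in 24 mouse samples, from biotin-labelled cRNA per the labels' protocols. The submitters' processing notes name 1 tool, MAS5, without a version. The deposited values are log2 ratios, as far as can be told: neither the base of the logarithm nor the scaling of the arrays is stated. The median of every one of 45141 probe sets was 0 over the 8 cell arrays and, separately, over the 16 tumours, so no level, detection call or intensity was kept. How many arrays there are limits the precision.

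An annotation table of 2016 named the probe sets, of which 28898 had 1 gene symbol, 551 several and 15692 none. Names and chromosomes come from the GRCm38.p6 gene table, which matched 28689 probe sets. For each of 17097 genes the probe set that varied most about the cell and the tumour means was used, groups ignored; 7180 genes had more than 1. The interaction was fitted with limma 3.58.1 in R 4.3.3 on the 16 arrays of the 4 groups, with 1 mean a group, no trend and a two-sided moderated test, Benjamini-Hochberg adjustment over all genes and a threshold of 0.05. Cell effects were fitted on the 8 cell arrays and tumour effects on all 16 tumours. "Separate fits" combine the errors of both effects with Satterthwaite's degrees of freedom. Probe sets of Cebpb and Blnk had exact permutation tests, two-sided. The scripts were tested on simulated data.

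Samples were grouped by title. The 27 gene lists, with 490 of 561 genes measured, and the rule for named genes were chosen with earlier results of these data known. The rule took the 15 largest passing interactions in each direction, genes that passed in tumours, the 10 largest rises and falls in cells and up to 4 genes of each list. Rearranged receptor segments and unnamed transcripts were counted but not named. Alternatives changed the fit, the variance, the scaling, the choice of probe sets and the arrays. Replicate numbers did not pair the samples: deviations of same-numbered arrays correlated at -0.03 to 0.26 in cells and -0.12 to 0.38 in tumours.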

Additional observations from a re-analysis of the deposited data

Results flagged for a closer look

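Samples of Blnk tumours, BKO408 and BKO408 LAP were compared with the rest of their group for 453 sets of values. LAP/Blnk tumours were not compared in this way. In these sets 32 values stood apart by more than Dixon's 95% limit, where chance gives about 1 in 20. Of these, 10 were values of Blnk tumour 5 and 15 of Blnk tumours in all.

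Blnk tumour 5 was high in the granulocyte gene Prtn3 (3.37), the acute-phase gene Hp (4.14), the platelet chemokine Ppbp (3.21), the endothelial gene Pecam1 (0.89), Ccr9 (1.59) and Ctxn3 (1.86), and low in Xrcc5 (-0.0482). Its list medians stood apart for granulocyte genes (2.73), stromal and endothelial genes (1.34) and chemokines (0.97). Blnk tumour 3 was high in Dntt (5.79), Crisp3 (4.52) and Perp (4.17). Blnk tumour 1 was low in Ptpn22 (-1.78) and Cxcl9 (-2.52).

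In cells single arrays stood apart as well, where chance again gives about 1 in 20 sets. Among BKO408 arrays, number 1 stood apart in Tifa (0.48) and Ccnd2 (-0.29), number 2 in Prodh (0.59), S100a8 (-0.24) and Bcl3 (0.20), number 3 in Kynu (0.64), Rag2 (0.65), H2-DMb2 (-0.18) and Ppan (-0.27), and number 4 in Fos (-0.79) and Aen (-0.10). Among BKO408 LAP arrays, number 1 stood apart in Stard4 (-0.21) and number 4 in Ccl9 (1.99) and the granulocyte median (-0.0262). Number 2 stood apart in the medians of B-lineage factors (-0.0257), p53 response genes (0.0281) and stromal genes (-0.045).

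Within the naming rule, the interaction passed for 9 genes with separate fits and for 36 in the fit reported. The 36 genes of the fit reported are listed here. Above 0 these were Fgf12 (3.51), Cebpb (3.49), Robo3 (3.23), Mirt1 (2.31), B3galt1 (2.25), Spsb4 (2.14), Tmem108 (1.90), Irf4 (1.67), Cyb561a3 (1.60), Gfra1 (1.57), Stk39 (1.57), Kynu (1.56), Tifa (1.51), Tifab (1.49), Ccdc186 (1.49), Gfi1b (1.26), Shoc2 (0.85), Cdkn2c (0.84) and Stard4 (0.80). Below 0 they were Klf2 (-2.55), Ptpn22 (-2.55), Gfi1 (-2.52), Cybb (-2.41), Cldn10 (-2.27), H1f2 (-1.97), Lyz2 (-1.86), Angptl6 (-1.76), Fos (-1.74), Fndc3b (-1.74), Wapl (-1.74), Ccl3 (-1.62), Cbr1 (-1.56), Smyd2 (-1.52), Ube2d3 (-1.47), Xrcc5 (-1.30) and Ero1a (-1.28).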

How the results depend on the processing

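The number of passing interactions depended on how the unequal spreads of tumours and cells were combined. It was 180 in the fit reported, 37 with separate fits, 47 with separate fits and all 16 tumours (chosen after seeing the data), 17 with all 24 arrays, 312 with 1 weight for cells and 1 for tumours, 820 with array weights and 311 over every probe set on its own. Leaving out 1 array gave 75 to 691: 75 to 90 without any 1 cell array, 174 to 230 without a LAP/Blnk tumour, and 348, 217, 360, 319 and 691 without Blnk tumour 1, 2, 3, 4 and 5. Without Blnk tumours 1 and 5 it was 904, and all 180 genes passed again. With the replicate number as a block, which leaves 5 residual degrees of freedom, 3 of them from cells, it was 1122; the numbers did not pair the samples. Quantile normalisation gave 121 above and 66 below 0 (64.7% above, against 49.4%), and 142 of the 180 genes passed again. In tumours 29 genes passed with it, and 2 to 13 when 1 tumour was left out, 13 without LAP/Blnk tumour 3 and 8 without LAP/Blnk tumour 1. Cebpb did not pass as the mean of its probe sets (1.15), nor at 3.49 with either pair of separate fits, all 24 arrays or a variance trend. Blnk, between 0.77 and 1.31 when 1 array was left out, passed at 1.31 without Blnk tumour 3 and at 0.91 with the replicate block. The plasma-cell median lay between -0.466 and 0.0317 when 1 array was left out (0.0317 without LAP/Blnk tumour 3), the unfolded-protein median was -0.33 with the block and the chromosome 19 median 0.33 with quantile normalisation. Genes that had not passed changed sign: Crisp3 without Blnk tumours 1 and 5 (-0.19) and with the block (-0.14), Ppbp in the same settings (0.0925 and 0.0348) and Cish with the block (0.19). When 1 array was left out, S100a8 lay between -2.60 and 0.17, S100a9 between -2.79 and 0.11, Saa3 between -0.63 and 2.32, Cdk6 between -1.60 and 0.0017, and Perp between -1.002 and 0.11. Of the 36 named genes with a passing interaction none changed sign, and 9 passed with separate fits, 11 with those and all 16 tumours, and 6 with all 24 arrays. Of these 36, 19 lost the call when some 1 array was left out. The causes were not tested.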

Other observations

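The genes that passed in all 3 ways of combining the spreads included 9 named genes outside the naming rule, chosen after their values were seen. With a cell effect and little effect in tumours, these were Sim1, a transcription factor gene (interaction 0.84, 0.07 in tumours and -0.77 in cells), Ceacam9 (1.11, 0.03 and -1.08), Trim66 (-0.58, -0.05 and 0.53) and the chromatin remodeller gene Ino80 (-1.18, -0.15 and 1.03). With the larger effect in tumours, they were Men1, which encodes menin (1.25, 0.97 and -0.28), Mark2, a kinase gene (0.92, 0.90 and -0.01), Actr1a of the dynactin complex (0.70, 0.62 and -0.08), the collagen gene Col15a1 (0.72, 0.78 and 0.05) and Anapc16 of the anaphase-promoting complex (-0.88, -0.55 and 0.33). Men1, Mark2 and Actr1a lie on chromosome 19.

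Of the other lists some had no passing interaction and some had 1 to 3, where 1.05% of all genes passed. None passed among 21 p53 response genes (median 0.10), 21 IL-7 receptor and STAT5 genes (0.09), 19 stem and progenitor genes (0.08), 18 T-cell genes (-0.31), 12 NK-cell genes (-0.29), 16 erythroid and platelet genes (-0.16), 19 stromal and endothelial genes (0.16), 9 dendritic-cell genes (-0.04) and 5 sex-linked genes (0.15). Ero1a alone passed among 26 unfolded-protein and amino-acid stress genes (median -0.16) and among 22 glycolysis and hypoxia genes (-0.22). Irf4 alone passed among 9 plasma-cell genes (11.1%, median -0.46), Klf2 alone among 25 immature and mature B-cell genes (-0.31), and Cebpb, Gfi1 and Gfi1b among 17 C/EBP and myeloid factors (17.6%, median -0.20). Without Blnk tumour 5 several of these medians moved by over 1.5 times. They were then -0.15 for T-cell, -0.16 for NK-cell, -0.05 for erythroid and platelet, 0.33 for stromal and endothelial, 0.12 for dendritic-cell, 0.16 for stem and progenitor and 0.74 for sex-linked genes. They were -0.26 for unfolded-protein genes, -0.16 for plasma-cell genes, -0.11 for immature and mature B-cell genes and -0.01 for C/EBP and myeloid factors.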
